A study of Homo sapiens with 6 samples.

Results

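The genes described here are 9 members of the PARP (poly(ADP-ribose) polymerase) family, PARP1, PARP2, PARP4, PARP8, PARP9, PARP10, PARP11, PARP12 and PARP14, together with DTX3L, the ubiquitin ligase that forms a complex with PARP9. They were chosen by symbol, with earlier results of these data known, and all 10 were found among the 23368 gene symbols of the count tables. RNA-seq was conducted on NB4 cells, an established human acute promyelocytic leukemia (APL) line that carries the PML/RARα fusion, either not treated or exposed for 24 h to 10 µM maltonis, a synthetic hydroxypyrone derived from maltol. Both groups are the same line in the same serum-supplemented medium and hold 3 libraries each, described in the study as biological replicates, so the values describe 1 cell line at 1 dose and 1 time. Total counts ran from 18492154 to 38205483 per library. The floor of detection was set at 3 counts, or 0.0785 to 0.162 per 1000000 unscaled counts of the library. Levels are given as CPM (counts per 1000000 counts of the library, whose size was scaled by the trimmed mean of M-values, TMM). Replicate 1 of both groups carries another code in its deposited name than replicates 2 and 3. The code's meaning is not stated, and it is called batch A and batch B below. Myeloid markers were present in every library, from CD33, the lowest, at 29.7 CPM or more to MPO, the highest, at 7300 CPM or more, while CD3E, HBB, COL1A1 and GFAP had at most 9 counts. EPCAM, an epithelial gene, stood at 16.0 to 17.6 CPM without treatment and at 10.2 to 12.8 CPM after it, and PECAM1, shared by endothelial and myeloid cells, at 7.51 to 13.4 and 15.8 to 20.3 CPM. Their part in the results was not tested.

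PARP enzymes transfer ADP-ribose from NAD+ to proteins and nucleic acids. PARP1 and PARP2 sense DNA breaks and build poly(ADP-ribose) chains that recruit repair factors, whereas most other members attach a single ADP-ribose unit. Several of the latter, among them PARP9, PARP10, PARP12 and PARP14, are known as interferon-stimulated genes with antiviral roles, and DTX3L and PARP9 act together on histones. In bulk RNA, fewer cells that express a gene and less RNA per cell cannot be told apart.

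Maltonis exposure raised the transcripts of 6 of the 10 genes, PARP14, PARP9, PARP10, PARP11, DTX3L and PARP2, and lowered those of PARP1. A gene was called at an FDR under 0.01 (quasi-likelihood test of edgeR, adjusted by Benjamini-Hochberg) among 13209 genes tested, of which 31.9% were higher and 32.1% lower. PARP4, PARP8 and PARP12 did not pass that threshold. With a further requirement of a change beyond 2.5-fold, which 9.95% of all genes passed upward and 10.4% downward, PARP14 and PARP9 remained and PARP1 did not. The median log2(FC) of the 10 genes was 0.64, against 0.01 over all genes tested. Because the genes were chosen with earlier results of these data known, this contrast is a description and not a test. The 3 libraries of a group lay wholly on one side of the other group for 10 of the 10 genes, although this held for 76.6% of all genes.

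**Figure D1:**
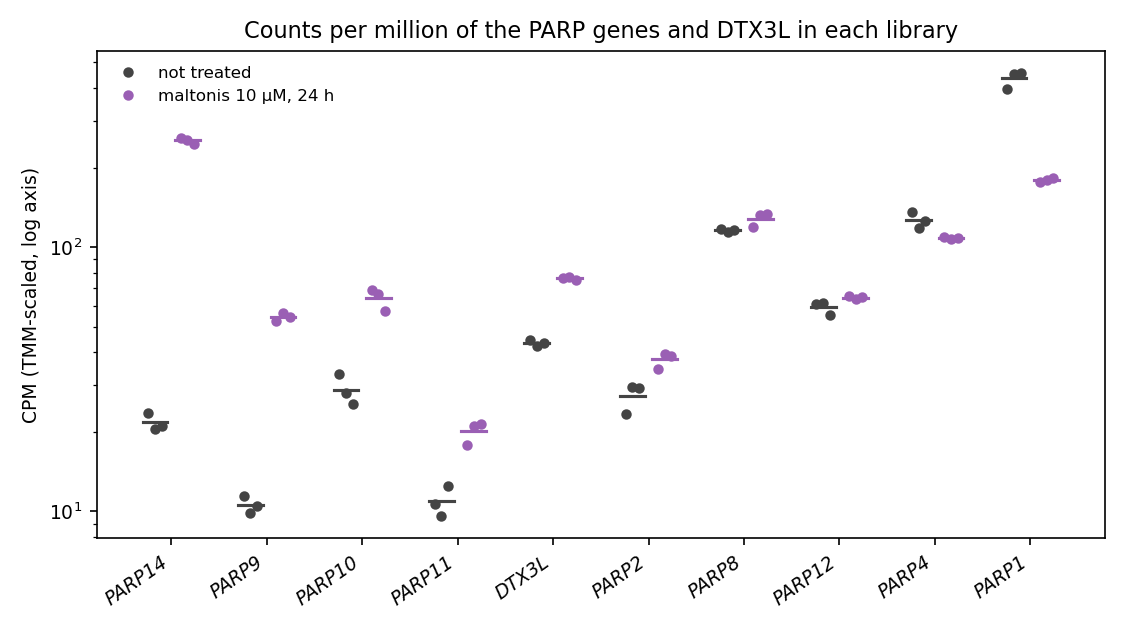
CPM of each gene (vertical log axis) in the 3 not treated (grey) and 3 maltonis-treated (purple) libraries, with bars at the group means and genes ordered by log2(FC). PARP14 libraries rise from 20.5 to 23.6 CPM to 246 to 259 CPM, and PARP1 libraries fall from 398 to 456 CPM to 177 to 183 CPM.

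PARP14, a large mono-ADP-ribosyltransferase with macrodomains that bind ADP-ribose, had the largest change of the 10. It measured 23.6, 20.5 and 21.1 CPM in not treated and 259, 255 and 246 CPM in maltonis-treated replicates 1, 2 and 3. The lowest treated library was thus far above the highest not treated one, and the means of 21.8 ± 1.65 and 253 ± 6.49 CPM (SD, n = 3) differ 11.7-fold. Its log2(FC) was 3.55 (standard error 0.0729, edgeR FDR = 1.92e-08), rank 162 from the top among the 13209 genes tested. Within batch A the log2 difference was 3.45 and within batch B 3.59.

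PARP9, an inactive or weakly active family member that acts with DTX3L, was with PARP11 among the lowest of the 10 in CPM before treatment. Its libraries held 11.4, 9.88 and 10.5 CPM without treatment and 52.6, 56.4 and 54.4 CPM with maltonis, with a wide gap between the groups. The log2(FC) was 2.37 (standard error 0.0800, edgeR FDR = 6.45e-08), a 5.17-fold rise. DTX3L, its partner, started higher and rose less. It stood at 44.5, 42.4 and 43.3 CPM in not treated and at 76.3, 77.2 and 75.4 CPM in maltonis-treated libraries. The replicates of each group were tight, and the 1.76-fold difference gave a log2(FC) of 0.81 (standard error 0.0577, edgeR FDR = 2.85e-06).

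The unequal response of these partners was also read within each library, where scaling has no part. There were 3.89, 4.29 and 4.14 DTX3L counts per PARP9 count in not treated replicates and 1.45, 1.37 and 1.39 in maltonis-treated ones. The log2 ratio therefore fell by 1.55, from 2.04 ± 0.0718 to 0.49 ± 0.0447 (SD, n = 3; two-sided exact permutation test, p = 0.1, the smallest p that 3 against 3 libraries allow). PARP14 counts per PARP9 count, a ratio added after the counts had been seen, went the other way. This ratio moved from 2.07, 2.08 and 2.02 to 4.92, 4.53 and 4.53, a log2 difference of 1.18 (exact permutation test, p = 0.1). Of the 4 such permutation tests made here, the other two being the ratio of PARP2 to PARP1 and the share of PARP1 given below, each had a p-value of 0.1, also after adjustment over the 4.

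PARP10, a mono-ADP-ribosyltransferase that can bind ubiquitin, held 33, 28 and 25.5 CPM without treatment and 69.0, 66.3 and 57.3 CPM with maltonis. The groups were well apart, although both spread more than those of DTX3L, and the log2(FC) was 1.16 (standard error 0.111, edgeR FDR = 1.77e-05). PARP11, a smaller enzyme of the same class known to act on interferon receptor turnover, measured 10.7, 9.60 and 12.5 CPM without and 17.8, 21.1 and 21.5 CPM with treatment. Its log2(FC) was 0.88 (standard error 0.122, edgeR FDR = 0.000189). Batch A gave a log2 difference of 0.73 and batch B one of 0.95.

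PARP12, a zinc-finger member found at the Golgi apparatus and counted among the interferon-stimulated genes, did not pass the threshold. It measured 60.8, 61.2 and 55.3 CPM in not treated and 65.1, 63.4 and 64.5 CPM in maltonis-treated cells, a log2(FC) of 0.12 (standard error 0.0642, edgeR FDR = 0.112). The groups lay close to each other without overlap. PARP8, whose function is poorly known, held 117, 114 and 116 CPM without and 119, 132 and 133 CPM with treatment, a log2(FC) of 0.14 (standard error 0.0622, edgeR FDR = 0.0667), with a log2 difference of 0.02 within batch A and 0.20 within batch B. Batch B alone placed PARP8 past the threshold (edgeR FDR = 0.00395). Scaling by total counts alone, which moves the median of all genes by 0.12 on the log2 scale, placed both genes past the threshold, with log2(FC) of 0.24 for PARP12 and 0.26 for PARP8.

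The promoter windows of the members are shown here because the neighbors PARP14, PARP9 and DTX3L, which rose, and PARP12, which did not pass the threshold, hold the same short motif. Windows of 250 bases before and 50 after a transcription start were taken from RefSeq (build GRCh38.p14) and matched 8 of the 10 genes, with 11 windows in all. PARP4 and PARP10 had none. The core of the interferon-stimulated response element (ISRE), bound by interferon regulatory factors, was searched on both strands as GAAA, any 2 bases and GAAA again. It was present in windows of 4 of the 8 genes, PARP14, PARP9, DTX3L and PARP12, against 4.38% of all 27305 genes and 3.57% of all 35116 windows of this length. PARP9 and DTX3L share the same match, and the genes were chosen with earlier results of these data known. The contrast is therefore a description and not a test. The core of the gamma-activated sequence (GAS), another interferon-responsive element, was searched as TTCNNNGAA, which reads the same on both strands. It was present in windows of 2 of the 8 genes, PARP14 and PARP2, against 9.38% of all genes and 7.66% of all windows. PARP1, PARP8 and PARP11 held neither. Capitals mark the motif matches in the sequences, each written 5′ to 3′ on the strand of its gene. That of PARP14 is chr3:122680589-122680888, plus strand, that of DTX3L chr3:122564088-122564387, plus strand, that of PARP12 chr7:140062902-140063201, minus strand, and that of PARP1 chr1:226408044-226408343, minus strand.
PARP14: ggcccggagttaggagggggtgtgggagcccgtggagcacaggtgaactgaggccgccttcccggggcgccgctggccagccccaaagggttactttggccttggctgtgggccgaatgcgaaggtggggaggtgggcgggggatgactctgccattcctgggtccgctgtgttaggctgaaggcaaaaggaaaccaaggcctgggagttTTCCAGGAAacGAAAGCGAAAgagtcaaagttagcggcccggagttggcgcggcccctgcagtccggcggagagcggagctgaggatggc
DTX3L: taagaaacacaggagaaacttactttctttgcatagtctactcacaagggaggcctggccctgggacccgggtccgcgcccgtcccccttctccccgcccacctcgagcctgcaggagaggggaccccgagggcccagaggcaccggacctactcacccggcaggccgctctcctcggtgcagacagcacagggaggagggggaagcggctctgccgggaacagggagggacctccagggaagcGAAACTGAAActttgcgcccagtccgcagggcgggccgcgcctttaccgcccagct
PARP12: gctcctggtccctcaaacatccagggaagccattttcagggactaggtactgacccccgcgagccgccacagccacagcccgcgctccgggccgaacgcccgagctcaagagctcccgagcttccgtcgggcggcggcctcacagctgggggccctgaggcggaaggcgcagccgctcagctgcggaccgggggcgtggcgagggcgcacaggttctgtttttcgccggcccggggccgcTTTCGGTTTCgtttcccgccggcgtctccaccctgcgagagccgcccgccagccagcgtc
PARP1: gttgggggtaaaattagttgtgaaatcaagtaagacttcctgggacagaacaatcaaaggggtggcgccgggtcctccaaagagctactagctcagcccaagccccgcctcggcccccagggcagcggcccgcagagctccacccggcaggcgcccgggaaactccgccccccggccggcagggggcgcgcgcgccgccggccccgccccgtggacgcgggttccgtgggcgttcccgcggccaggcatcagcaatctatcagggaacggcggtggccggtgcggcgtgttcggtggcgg

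In PARP14 the ISRE match GAAAGCGAAA began 29 bases before the start and the GAS match TTCCAGGAA 40 bases before it, without overlap. In PARP12 the match TTTCGGTTTC, the motif on the opposite strand, ended at the last base before the start. The match GAAACTGAAA spanned the start of DTX3L, and the same bases, at chr3:122564332-122564341, lay 41 bases before the start of PARP9 as TTTCAGTTTC. That PARP9 start is 38 bases upstream of the DTX3L start on the other strand, and the 2 windows share 137 bases. A single match thus lies in a window of PARP9, which rose 5.17-fold, and in that of DTX3L, which rose 1.76-fold. The match of PARP12, whose edgeR FDR was 0.112, began 10 bases before the start. Whether these matches took part in the response was not tested. A match describes the letters of a window and not the binding of a factor.

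**Figure D2:**
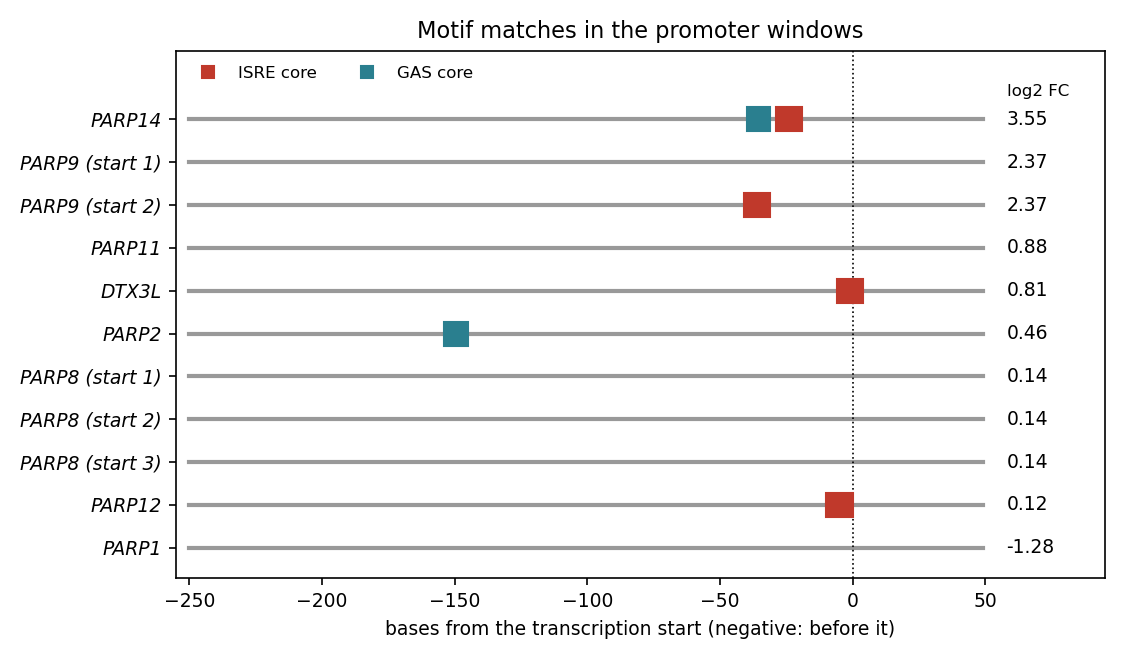
Position of ISRE core (red) and GAS core (blue-green) matches in 11 promoter windows, in bases from the transcription start, with the log2(FC) of each gene at the right and genes with several starts on several lines. ISRE matches lie within 41 bases before or at the start of PARP14, PARP9 (1 of 2 starts), DTX3L and PARP12, with log2(FC) from 0.12 to 3.55.

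PARP9, DTX3L, PARP15 and PARP14 follow each other on chromosome 3. The response did not extend evenly along this stretch. PARP15, which lies between DTX3L and PARP14 and encodes another macrodomain member, had 0 counts in 5 libraries and 1 count in maltonis replicate 2, so its level was under the floor of 3 counts in every library. Of the 9 neighbors listed, 7 could be tested, and 1 was higher and 3 lower at an FDR under 0.01. With 31.9% higher and 32.1% lower among all genes, these counts say nothing particular about the locus. WDR5B rose, with a log2(FC) of 1.71, whereas CSTA, CCDC58 and FAM162A fell, with −1.09, −1.30 and −0.67. KPNA1, next to PARP9, had a log2(FC) of −0.35 (edgeR FDR = 0.0106), while HSPBAP1 and DIRC2, beyond PARP14, both had 0.38 (edgeR FDR = 0.0173 and 0.0707). SEMA5B had at most 2 counts in a library. The number higher was 2 without replicate 1 of either group, in batch B alone, with the batch as a covariate, under total counts or upper quartile scaling and by the likelihood ratio test. The number lower was 4 in 7 of the 16 alternatives. A second annotated PARP9 start lies 446 bases inside DTX3L on the opposite strand. Whether the counting used the strand is not stated, and without it reads from the overlap of these genes could not be told apart.

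**Figure D3:**
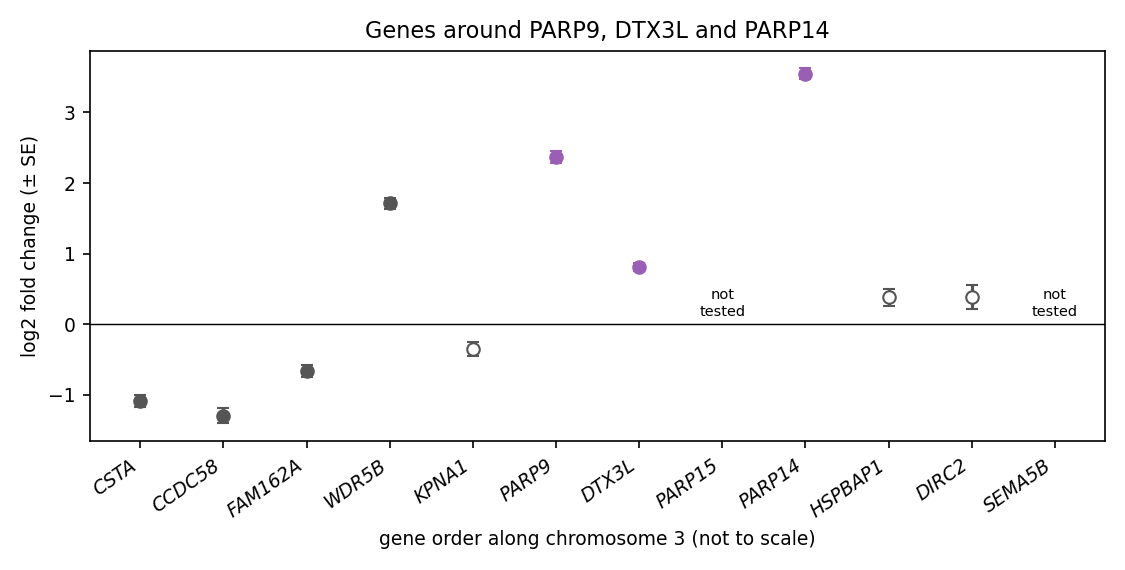
Log2(FC) with standard errors (vertical axis) of 12 genes in their order along chromosome 3, with members in purple, other genes in grey, open circles for an FDR of 0.01 or above and genes with too few counts marked as not tested. PARP9 (2.37) and PARP14 (3.55) stand above DTX3L (0.81), and the neighbors range from −1.30 to 1.71.

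Among the DNA repair members, PARP1 was the gene that fell. It is the most abundant nuclear PARP and accounts for most poly(ADP-ribose) made after DNA damage. PARP1 measured 398, 453 and 456 CPM in not treated and 177, 179 and 183 CPM in maltonis-treated cells, so that no treated library came near a not treated one. Its level was 2.43-fold lower, a log2(FC) of −1.28 (standard error 0.0677, edgeR FDR = 5.52e-07), with −1.17 in batch A and −1.33 in batch B. PARP2, which shares the break-sensing role, held 23.3, 29.6 and 29.2 CPM without and 34.6, 39.4 and 38.9 CPM with treatment. Replicate 1 was the lowest in both groups, and the log2(FC) of 0.46 (standard error 0.104, edgeR FDR = 0.00372) was no longer past the threshold without maltonis replicate 2 (edgeR FDR = 0.0305) or without maltonis replicate 3 (edgeR FDR = 0.0280). The number of PARP2 counts per PARP1 count, a ratio added after the counts had been seen, was higher with maltonis. It went from 0.0585, 0.0653 and 0.0641 to 0.196, 0.220 and 0.213 (log2 difference 1.74, exact permutation test, p = 0.1).

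PARP4, a component of cytoplasmic vault particles, measured 136, 118 and 125 CPM without and 109, 107 and 108 CPM with maltonis. The treated libraries lay close together under all not treated ones, and the log2(FC) was −0.23 (standard error 0.0651, edgeR FDR = 0.0120). It passed the threshold without not treated replicate 2 (edgeR FDR = 0.00901) and under several other settings. Other scaling made the fall smaller, with a log2(FC) of −0.11 by total counts (edgeR FDR = 0.187) and −0.14 by upper quartile (edgeR FDR = 0.088).

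Levels can be compared between genes only per length, for which RPKM (CPM per kilobase) was computed with the exons of RefSeq-linked transcripts. PARP1 was the most abundant of the 10 genes in both groups, at 110 ± 8.30 RPKM without and 45.4 ± 0.751 RPKM with maltonis (SD, n = 3). PARP14 moved from rank 8, at 2.75 ± 0.209 RPKM, to rank 2, at 32.0 ± 0.819 RPKM, clear of the next gene, PARP4, at 19.7 ± 0.237 RPKM. PARP9 was the lowest of the 10 without treatment, at 1.35 ± 0.101 RPKM, and PARP11 the lowest with it, at 4.30 ± 0.438 RPKM. In not treated cells the ranges of PARP8, PARP12 and PARP2 overlapped from neighbor to neighbor, as did those of PARP10 and DTX3L and of PARP14 and PARP11. In maltonis-treated cells those of PARP4, PARP2, PARP10, PARP8 and PARP12 overlapped from neighbor to neighbor. With all annotated exons as the length, PARP1 and PARP14 held the same ranks, but PARP1 measured 60.8 RPKM without and 25.1 RPKM with maltonis, where it lay close to PARP14 at 24.2 RPKM. DTX3L then moved from rank 7 to 5 without and from rank 8 to 4 with treatment.

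With the exons of RefSeq-linked transcripts, the summed RPKM of the 10 genes stood at 193, 204 and 205 without treatment against 191, 195 and 192 with maltonis. These ranges overlap, but the sum depends on the lengths used. With all annotated exons, the mean levels of the 10 genes add up to more with maltonis than without. The make-up of the RefSeq-based sum differed between the groups. PARP1 took 52.1%, 56.1% and 56.2% of the sum without and 23.4%, 23.2% and 24.0% with treatment (exact permutation test, p = 0.1). The share of PARP14 went from 1.37% ± 0.152 to 16.6% ± 0.472, that of PARP10 from 3.98% ± 0.667 to 9.17% ± 0.877 and that of PARP9 from 0.676% ± 0.0730 to 3.60% ± 0.0862 (SD, n = 3). The other 9 genes together measured 92.3, 89.5 and 89.6 RPKM without and 147, 150 and 146 RPKM with maltonis.

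**Figure D4:**
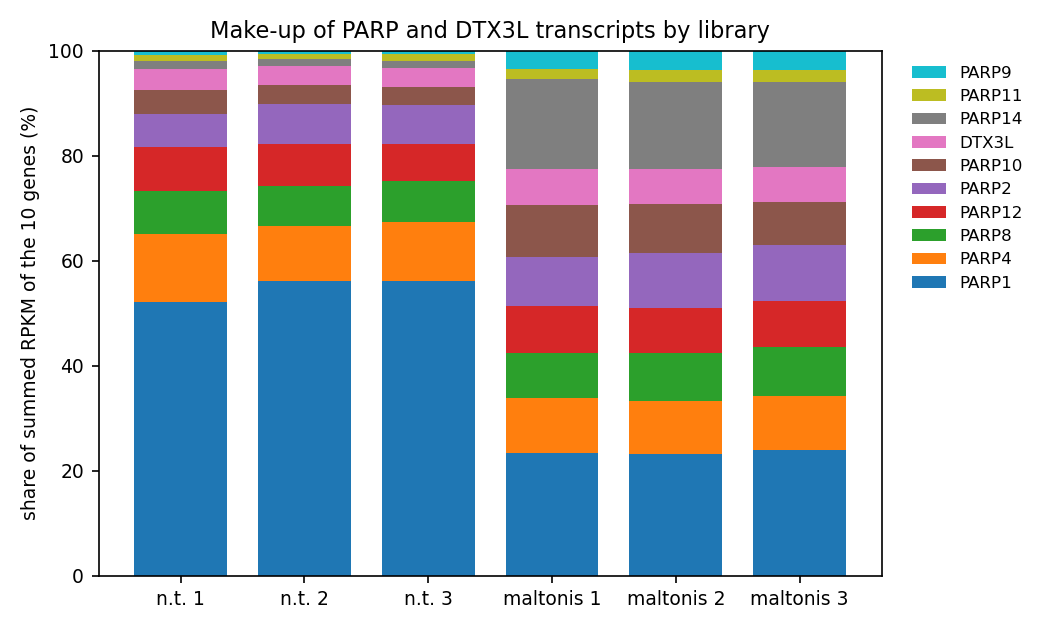
Share of each gene in the summed RPKM of the 10 genes (vertical axis, percent) for each library, stacked from the most to the least abundant in not treated (n.t.) cells. The PARP1 share is 52.1% to 56.2% in not treated and 23.2% to 24.0% in maltonis-treated libraries, and the PARP14 share (grey) grows from 1.37% to 16.6% on average.

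The remaining PARP-domain genes had log2(FC) from −0.22 to 1.93. Of 8 listed, 7 were tested, 4 were higher and 0 lower at an FDR under 0.01, with a median log2(FC) of 0.35. Among all genes tested, 31.9% were higher and 32.1% lower. The number of these family genes called higher was 3 when any single library was left out and 5 with the batch as a covariate. ZC3HAV1, the zinc-finger antiviral protein, which binds viral RNA and lacks catalytic activity, rose from 240, 233 and 246 CPM to 959, 906 and 875 CPM, a log2(FC) of 1.93 (standard error 0.0602, edgeR FDR = 4.49e-08). TIPARP, a mono-ADP-ribosyltransferase and target of the aryl hydrocarbon receptor, rose from 58.6, 61.5 and 59.8 CPM to 168, 181 and 184 CPM, with a log2(FC) of 1.57 (standard error 0.0613, edgeR FDR = 1.29e-07). Treated and not treated libraries of both genes were far apart. TNKS, which encodes a tankyrase of telomere and Wnt regulation, had a smaller rise with a log2(FC) of 0.45 and PARP16, a protein of the endoplasmic reticulum, one of 0.32. TNKS2, the other tankyrase, had a log2(FC) of 0.35 (standard error 0.237, edgeR FDR = 0.214) and overlapping groups, with 87.2 and 140 CPM in the replicate 1 libraries of not treated and maltonis-treated cells, against 153 CPM or more in the others. Its log2 difference was 0.68 within batch A and 0.25 within batch B. PARP6 and PARP3, at 0.19 and −0.22, did not pass the threshold either (edgeR FDR = 0.0748 and 0.0380).

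**Figure D5:**
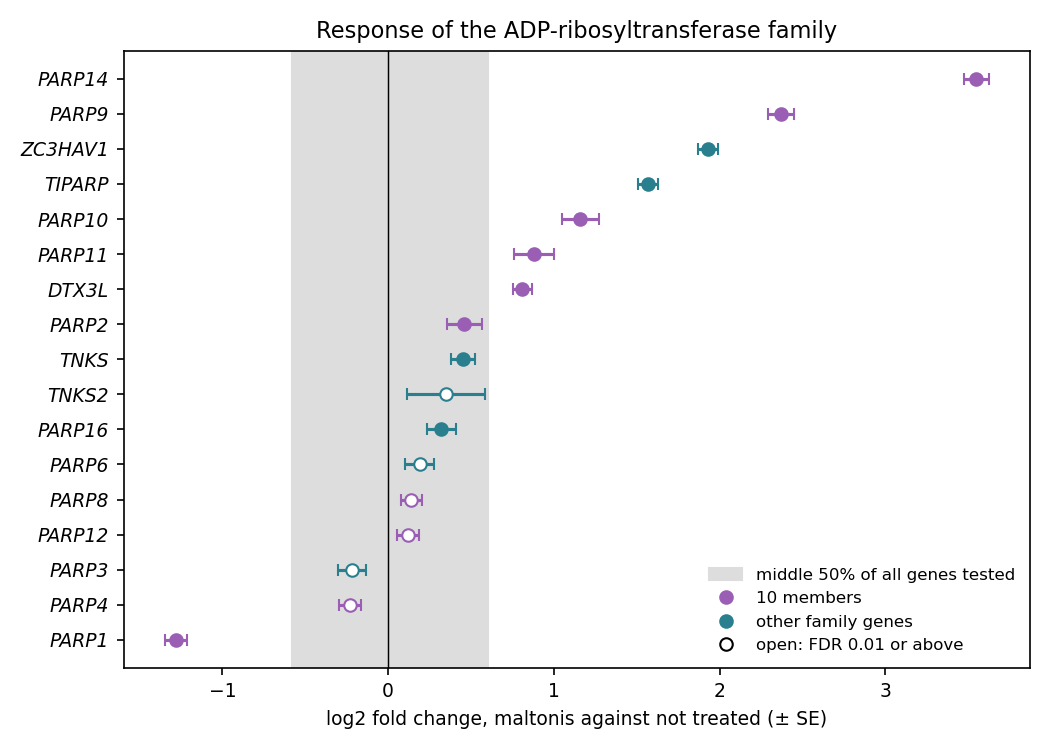
Log2(FC) with standard errors (horizontal axis) of the 10 members (purple) and of 7 other family genes (blue-green), with open circles for an FDR of 0.01 or above and a grey band for the middle 50% of all genes tested, from −0.58 to 0.60. PARP14, PARP9, ZC3HAV1, TIPARP, PARP10, PARP11 and DTX3L lie above the band and PARP1 below it.

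Of 11 listed genes that remove or read ADP-ribose, 9 were tested, 4 were higher and 3 lower at an FDR under 0.01. These counts are close to what the 31.9% higher and 32.1% lower among all genes would give, so they say nothing particular about the list. C6orf130 (OARD1), which cleaves terminal ADP-ribose from proteins, stood at 21.4 ± 1.44 CPM without and 71.9 ± 0.567 CPM with maltonis (SD, n = 3) and rose with a log2(FC) of 1.75, and ADPRH, an arginine-ADP-ribose hydrolase, had a log2(FC) of 1.34. MACROD1, a mitochondrial macrodomain hydrolase, fell from 34.2, 30.2 and 26.3 CPM to 3.67, 4.08 and 3.48 CPM. This is an 8.01-fold lower level with a log2(FC) of −3.00 (standard error 0.127, edgeR FDR = 1.83e-07). PARG, the main hydrolase of poly(ADP-ribose) chains, fell from 26.7, 26.7 and 24.1 CPM to 16.2, 17.0 and 17.6 CPM, with a log2(FC) of −0.60 (standard error 0.0786, edgeR FDR = 0.000125). Transcripts of PARP1 and of PARG were therefore both lower. ADPRHL2 (ARH3), another listed hydrolase that acts on such chains, is named with its values already known. Its groups overlapped, with a log2(FC) of 0.03 (standard error 0.0870, edgeR FDR = 0.741).

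Among 11 partners of PARP1 in DNA single-strand break repair and chromatin, all of which were tested, 5 were higher and 3 lower, with a median log2(FC) of 0.02, beside 31.9% higher and 32.1% lower among all genes. APLF and LIG3, a poly(ADP-ribose)-binding repair factor and a DNA ligase, had log2(FC) of 0.87 and 0.79. H2AFY, which encodes the ADP-ribose-binding histone macroH2A1, fell from 336 ± 10.1 to 119 ± 1.85 CPM (SD, n = 3), a log2(FC) of −1.50, and CHD1L, a remodeler activated by poly(ADP-ribose), had one of −0.72. C4orf27 (HPF1), the cofactor that directs PARP1 and PARP2 to serine, is named with its values already known and had overlapping groups, with a log2(FC) of 0.02 (standard error 0.149, edgeR FDR = 0.919).

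The deltex genes related to DTX3L were mostly undetected. DTX1 and DTX3 had 0 counts in every library and DTX4 at most 2, while DTX2 rose from 20.5 ± 0.413 to 36.3 ± 6.64 CPM (SD, n = 3) with a log2(FC) of 0.81. Its maltonis replicate 1 stood apart at 43.8 CPM, and batch A gave a log2 difference of 1.12 against 0.64 for batch B. Of 9 genes listed for interferon signaling, 7 were higher and 1, JAK1, was lower (log2(FC) of −0.37), beside 31.9% higher among all genes. The list also holds STAT6, chiefly a transducer of interleukin signals. It was among those higher, and its log2(FC) of 0.82 was the median of the list. IRF9 and STAT2, which take part in transcription from the ISRE, had log2(FC) of 2.90 and 1.80.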

How the data were processed

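The authors deposited 1 table of HTSeq counts per library, whole numbers of reads per gene symbol without normalization, from stranded, ribosomal RNA-depleted libraries. The submitters' processing notes name TopHat, Bowtie2 and hg19, while the annotation, the versions and the strand setting of the counting are not given in the sources used here. These counts entered edgeR 4.0.16 under R 4.3.3 (filterByExpr, TMM, quasi-likelihood test of 3 maltonis against 3 not treated libraries without covariates, Benjamini-Hochberg adjustment over 13209 genes). The standard error is the log2(FC) divided by the square root of the test's F. CPM use TMM-scaled library sizes, batch differences log2 CPM with a prior count of 2. Exon lengths come from GENCODE version 29 and promoter windows from RefSeq, both on GRCh38, so only the windows' own coordinates are given. The chi-square per degree of freedom between replicate libraries was 4.15 to 33.1, more than counting error alone would give. This does not show that the cultures were separate. Each library was counted as its own sample because the study describes biological replicates. Depth limits cover counting error only.

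The members and lists were chosen with earlier results of these data known. The rule named all members, the other family genes, the neighbors on chromosome 3, up to 2 highest and 2 lowest called genes of each further list, and the 3 genes most like PARP9, DTX3L and PARP14. The ratios of PARP14 to PARP9 and of PARP2 to PARP1 were added after the counts had been seen. Alternatives covered scaling, test (DESeq2 1.42.0, likelihood ratio), filter, replicate block, batch and each library left out. Some items are not reported here.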

Additional observations from a re-analysis of the deposited data

How the results depend on the processing

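PARP1, PARP9, PARP10, PARP11, PARP14 and DTX3L kept their direction and their call under each of 16 alternatives, with log2(FC) from −1.35 to −1.16, 2.31 to 2.49, 1.07 to 1.28, 0.78 to 1.00, 3.50 to 3.66 and 0.78 to 0.93. No member changed direction. The number of members higher was 6 with 8 under total counts and 7 in batch B alone, 5 to 6 when a library was left out, and 2 with a change beyond 2.5-fold. The number lower was 1 and became 2, through PARP4, with DESeq2's Wald test, without a filter beyond 1 count, with the batch as a covariate, in batch B alone and at an FDR under 0.05, ranged from 1 to 2 when a library was left out, and was 0 beyond 2.5-fold. With the replicate block, 6 members were higher and 2 lower, and 5 rather than 4 of the other family genes were higher. Same-numbered libraries deviated from their group means with correlations of 0.301, 0.085 and 0.161, and replicate 2 did not correlate best with its own number, so the numbers were not taken as pairs. The difference in the log2 ratio of DTX3L to PARP9 lay between −1.59 and −1.52, and that in the PARP1 share between −32.7 and −29.1 percentage points. The cause of these shifts was not tested. With 3 libraries per group, the exact permutation tests could not go below 0.1.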

Other observations

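NAD+ is the substrate of all PARP enzymes. Of 16 listed genes that supply or use it, 14 were tested, 8 rose and 4 fell past the FDR threshold of edgeR used above, with a median log2(FC) of 0.53, beside 31.9% higher and 32.1% lower among all genes. NMNAT2, an enzyme of the last step of NAD+ synthesis, stood at 1.12, 1.21 and 1.63 CPM in not treated and 14.5, 14.0 and 13.3 CPM in maltonis-treated cells, a log2(FC) of 3.37 (standard error 0.142, edgeR FDR = 1.79e-07). SARM1, an NAD+ hydrolase, had 1, 4 and 3 counts without and 31, 36 and 32 counts with treatment, so that the size of its rise is uncertain. QPRT, which makes NAD+ precursors from tryptophan products, fell from 78.1 ± 1.81 to 22.6 ± 1.01 CPM (SD, n = 3), a log2(FC) of −1.79, and CD38, a surface NAD+ hydrolase, had a log2(FC) of −1.44.

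Over the 6 libraries, the genes closest to PARP9 in log2 CPM centred on their mean were NMNAT1, THAP9 and HERC5, with root mean square distances of 0.046, 0.065 and 0.066. Those closest to DTX3L were SPG11, CTSS and FAM111A (0.0091, 0.019 and 0.024), and those closest to PARP14 were LACC1, ESRRB and CAPN3 (0.042, 0.066 and 0.073). The libraries fall into only 2 groups, so a small distance mostly reflects a like difference between them, and the log2 CPM carry a prior count of 2, which draws in low genes such as ESRRB, whose fitted log2(FC) of 4.96 exceeds the 3.55 of PARP14.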
